A study of Sus scrofa with 24 samples.

Results

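The genes of class I antigen presentation were followed in the subcutaneous fat of pigs from lines selected on residual feed intake, the feed an animal eats above what its growth and maintenance predict. A member was any array probe that carries, by its own gene name or through its listed transcript identifier, the symbol of one of 10 genes: the class I heavy chains SLA-1, SLA-2, SLA-3, SLA-6, SLA-7 and SLA-8, the light chain B2M, the peptide transporter subunits TAP1 and TAP2, and TAPBP. Of these, 7 had a probe under their own symbol, out of 5597 symbols on the array. They were read by 30 probes, of which 29 passed the filter on dim signals (28601 of the 43603 probes on the array passed). B2M had 10 probes, SLA-3 had 8, SLA-8 had 4, SLA-1 had 3, and TAP1 and SLA-6 had 2 each, 1 of the SLA-6 probes being filtered out. SLA-7 had 1 probe. SLA-2 was named only through the listed transcripts of 4 probes that carry SLA-1 or SLA-3 as their symbol. The SLA-1 probes carry that symbol as their gene name, and none of them lists an SLA-1 transcript. Of the 10 B2M probes, 2 list a B2M transcript, and the others carry the symbol only as their gene name. No probe met the rule for TAP2 or TAPBP.

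The groups were RFIneg, a low residual feed intake line fed freely, RFIplR, the high line held to the feeding level of the low line, and RFIpl, the high line fed freely. Each had 8 pigs of 115 kg body weight, with 1 array per pig, and the labels give no age or sex. Line and feed intake both differ between RFIneg and RFIpl, only the line between RFIneg and RFIplR, and only the feeding level between RFIplR and RFIpl, as far as the labels go.

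Class I molecules show short peptides from inside the cell to cytotoxic T cells, and natural killer cells read their absence. A heavy chain, called SLA in pigs for swine leukocyte antigen, pairs with beta 2-microglobulin, the product of B2M. TAP1 and TAP2 form the pump that carries peptides into the endoplasmic reticulum, and tapasin, the product of TAPBP, holds the empty molecule next to that pump. SLA-1, SLA-2 and SLA-3 are the classical, highly polymorphic heavy chains of the pig, and SLA-6, SLA-7 and SLA-8 are the non-classical ones.

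The sequences of 8 probes show what the array can and cannot separate. The first pair below carries the symbols SLA-1 and SLA-3, is offset by 1 base and overlaps over 59 bases. Its capitals mark the 4 bases at which the 2 probes differ. The transcripts listed for the SLA-1 one are those of SLA-2 and SLA-5, and for the SLA-3 one those of SLA-2 and SLA-3. The 2 SLA-8 probes that follow overlap over 58 bases and differ at 1, again in capitals. The fifth probe lists SLA-2, SLA-3 and SLA-5 at once. The sixth is the class I probe that varied most between pigs, and the last 2 read B2M and TAP1. Probes are called by the ending of their name in the files, after the shared prefix. All are written 5′ to 3′ as the files give them, and those without capitals are shown only for their identity.
SLA-1 P440391: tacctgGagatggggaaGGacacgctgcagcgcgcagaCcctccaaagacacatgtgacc
SLA-3 P440386: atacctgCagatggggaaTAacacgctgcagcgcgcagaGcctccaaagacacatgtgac
SLA-8 P541846: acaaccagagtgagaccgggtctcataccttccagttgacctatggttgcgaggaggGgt
SLA-8 P734731: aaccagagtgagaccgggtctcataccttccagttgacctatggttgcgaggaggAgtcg
SLA-3 P683231: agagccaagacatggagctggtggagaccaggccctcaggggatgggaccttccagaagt
SLA-3 P625729: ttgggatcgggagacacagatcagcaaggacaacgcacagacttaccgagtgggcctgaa
B2M P709927: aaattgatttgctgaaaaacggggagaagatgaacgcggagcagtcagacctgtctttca
TAP1 P223837: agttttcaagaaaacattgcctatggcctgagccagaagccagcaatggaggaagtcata

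With such near-identical targets, a value of an SLA-1 or SLA-3 probe may hold signal of other classical genes. Among the 435 pairs of member probes, 7 shared an identical stretch of 15 bases or more, of which 1 pair joined different genes, the SLA-1 and SLA-3 probes printed first. Probes of 1 gene, and probes that share a stretch, are not independent readings.

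A value is the log2 of the background-subtracted spot signal minus the 75th percentile of its own array, so that 0 stands for that percentile. The 24 arrays fell into 17 bright ones, with a 75th percentile of 415.5 to 664.7 intensity units, and 7 dim ones, with 69.6 to 94.6. The dim arrays were 2 of RFIneg, 3 of RFIplR and 2 of RFIpl, and all 7 were scanned on the second of 3 scan days, together with 3 bright ones. The split followed the first principal component, which held 74.6% of the variance. Of the 29 class I probes, 25 were lower on dim arrays even after scaling, though the share of all kept probes lower there was not worked out. The dim minus bright differences of the 10 B2M probes lay between -2.48 and -1.08. Each comparison is therefore given both without and with the brightness class as a block. Among bright arrays RFIpl 2 carried the most skeletal muscle transcripts: its mean over 6 measured muscle markers was 6.72, against a median of -1.56 over the bright RFIpl arrays. RFIpl 1 at 1.33, RFIneg 6 at 0.41 and RFIneg 5 at -0.56 also stood above the remaining bright arrays, of which RFIpl 4 was highest at -1.55. RFIpl 2 was also the lowest bright RFIpl array at 19 of the 29 class I probes, all 10 of B2M among them. On RFIpl 7 and RFIpl 8, also bright, the mean over 2 keratinocyte markers was 4.78 and 3.33, against a median of -1.48 over the bright RFIpl arrays. Values without RFIpl 2, and without RFIpl 7 and 8, are given below.

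B2M was higher in RFIplR than in RFIpl at all of its 10 probes, once the brightness of the arrays was taken into account. So were 4 of the 8 SLA-3 probes, the measured SLA-6 probe, and 1 of the 3 SLA-1 probes, which lists an SLA-2 transcript. The called differences came to 1.23-fold to 1.72-fold. SLA-7, SLA-8 and TAP1 had no call, and in RFIneg against RFIpl only 3 B2M probes passed. None of these differences passed without the brightness block. Without the block, limma called 0 of the 29 class I probes in any of the 3 comparisons at an adjusted p under 0.05. Over all kept probes the share called was 0.206% in RFIneg against RFIpl (0.147% higher and 0.0594% lower), 0.297% in RFIplR against RFIpl (0.182% higher and 0.115% lower) and 0% in RFIneg against RFIplR. The test of any difference between the 3 groups called 0 class I probes without the block, where 0.276% of all kept probes were called. At an unadjusted p under 0.05 there were 0, 2 and 0 of 29 class I probes in these comparisons, where 6.88%, 8.20% and 2.11% of all kept probes reached it. Median differences of the 29 probes were 0.29, 0.22 and 0.06, beside -0.01, 0.01 and -0.01 over all kept probes. In each of the first 2 comparisons 26 of the 29 differences were positive.

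**Figure D1:**
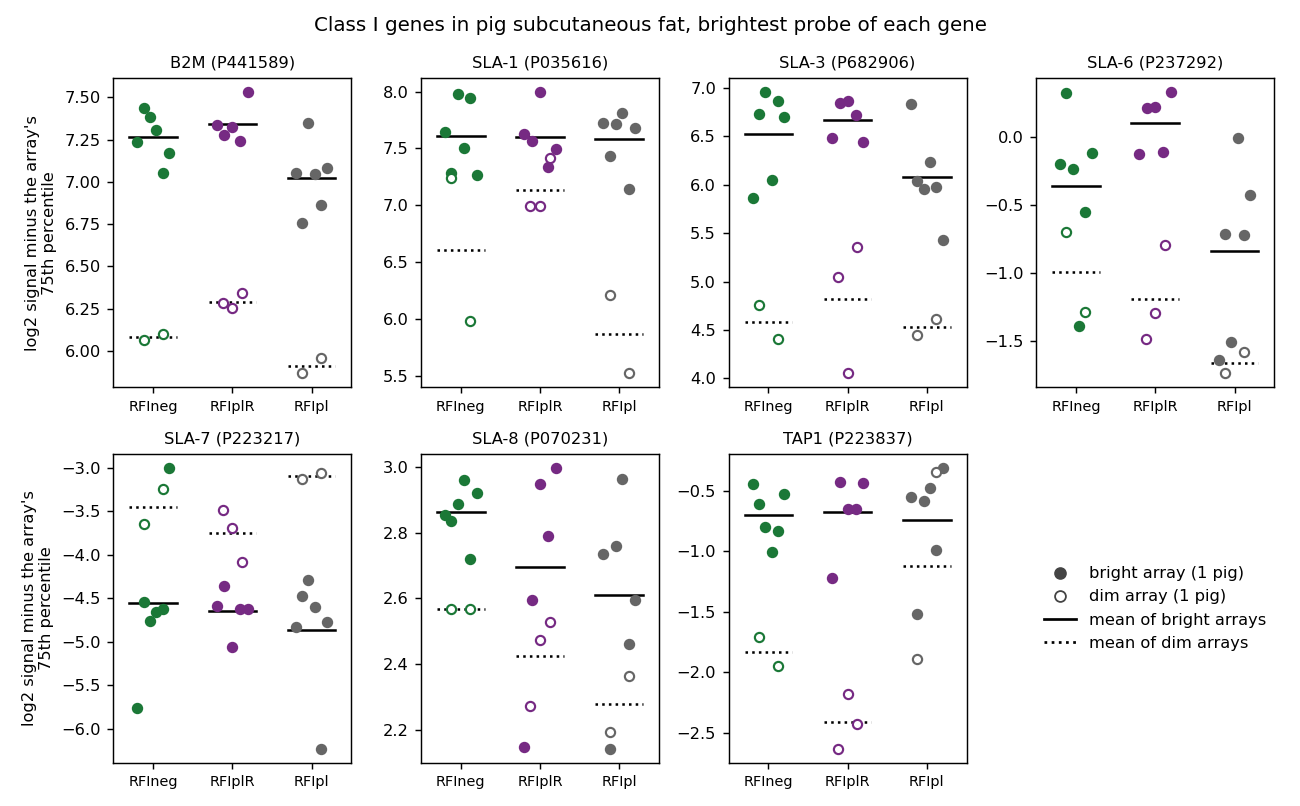
Log2 signal minus the array's 75th percentile (vertical axes, a scale of its own per gene) for the 7 measured genes, each at its brightest probe, in RFIneg, RFIplR and RFIpl. Each point is 1 pig on a bright (filled) or dim (open) array, and lines mark the mean of the bright (solid) and dim (dotted) arrays. B2M splits by brightness first, and within each brightness class its mean is lowest in RFIpl.

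With brightness as a block, 16 of 29 class I probes were higher in RFIplR than in RFIpl and 0 lower. Over all kept probes 10.3% were called there, 5.8% higher and 4.52% lower. The 16 probes belong to 4 genes, and 10 of them read B2M in the same pigs, so they are not 16 independent calls. In RFIneg against RFIpl 3 of 29 were called higher and 0 lower, where 6.6% of all kept probes were called, 4.29% higher and 2.31% lower. In RFIneg against RFIplR 0 were called by limma, as were 0% of all kept probes, and 2 class I probes reached an unadjusted p under 0.05, against 2713 of all kept probes. The test of any difference between the 3 groups called 9 class I probes, 6 of B2M and 3 of SLA-3, where 9.04% of all kept probes were called. The median difference of the 29 probes was 0.40 in RFIplR against RFIpl, beside -0.02 over all kept probes. In RFIneg against RFIplR it was -0.13 with the block, the opposite sign to the 0.06 without it. Comparisons with RFIpl share its 8 pigs and are not independent of each other.

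**Figure D2:**
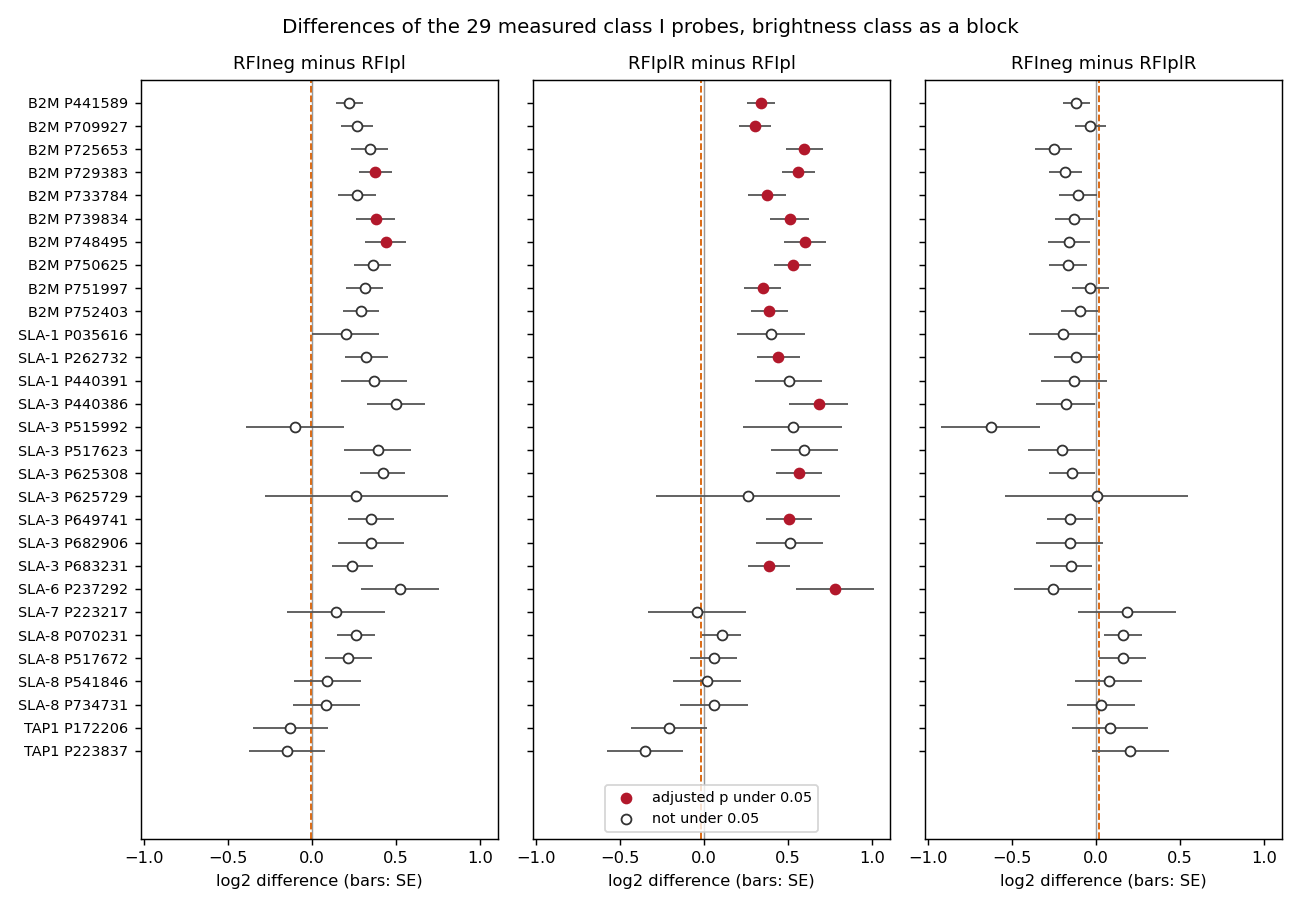
Log2 differences with standard errors of the 29 measured class I probes (1 row each, ordered by gene) in RFIneg minus RFIpl, RFIplR minus RFIpl and RFIneg minus RFIplR, from the fit with brightness as a block. Filled points have an adjusted p under 0.05, and the dashed line is the median of all kept probes. All 10 B2M probes are filled in the middle panel and 3 in the left one, while SLA-8, SLA-7 and TAP1 have no filled point.

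The light chain B2M gave the most even readings. Its probe with the highest mean signal, P441589, had a lowest, median and highest value of 6.07, 7.20 and 7.44 in RFIneg, of 6.25, 7.26 and 7.53 in RFIplR, and of 5.87, 6.95 and 7.35 in RFIpl. The lowest values of every group were its dim arrays, and the ranges of the 3 groups overlapped. On bright arrays alone the level averaged 7.26 ± 0.14 in RFIneg (SD, n = 6), 7.34 ± 0.11 in RFIplR (n = 5) and 7.02 ± 0.20 in RFIpl (n = 6). Dim arrays stood at 6.07 and 6.10 in RFIneg, at 6.25, 6.28 and 6.34 in RFIplR, and at 5.87 and 5.96 in RFIpl, with no overlap between the groups. With the block, RFIplR lay 0.34 ± 0.08 (SE) above RFIpl, or 1.27-fold, with an adjusted p of 0.012. The RFIneg difference from RFIpl was 0.22 ± 0.08, or 1.17-fold, with an adjusted p of 0.10.

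In RFIplR against RFIpl all 10 were called higher, by 1.23-fold to 1.52-fold, and the smallest adjusted p, 0.0017, was that of P729383. That probe read 3.73, 5.78 and 6.08 in RFIplR (lowest, median and highest), against 3.03, 5.30 and 5.69 in RFIpl. Every bright RFIplR array lay above every bright RFIpl array for P729383, P748495 and P750625, a pattern that 2.16% of all kept probes showed. Every dim RFIplR array lay above both dim RFIpl arrays at 10 of 10 B2M probes and 8 of 11 SLA-1 and SLA-3 probes, where 19.5% of all kept probes did so. At the SLA-7 probe and 2 TAP1 probes every dim RFIplR array lay below both instead, and the share of all kept probes doing so was not worked out. In the bright arrays alone, limma called 2 class I probes in RFIplR against RFIpl, P729383 and P750625, where 3.26% of all kept probes were called, and 0 in RFIneg against RFIpl, where 1.03% were. In the dim arrays alone it called 0% of all probes in either comparison.

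In RFIneg against RFIpl the 10 B2M differences ranged from 1.17-fold to 1.35-fold, and the 3 called class I probes were all B2M. P729383 differed by 0.38 (adjusted p = 0.026), P748495 by 0.44 (adjusted p = 0.036) and P739834 by 0.38 (adjusted p = 0.0498). P748495 shares 21 bases with P729383 and 23 with P739834. None of these 3 probes lists a B2M transcript. Every dim RFIneg array lay above both dim RFIpl arrays at 16 class I probes, 10 of them B2M, a pattern of 21.1% of all kept probes, and 0 class I probes showed it on bright arrays, where 0.545% of all kept probes did. On dim arrays the reverse order held at the SLA-7 probe, 2 SLA-8 probes and 1 TAP1 probe. The share of all kept probes in that reverse order was not worked out. The count of 3 rested on single arrays: it was 0 without RFIneg 3 or RFIpl 6, 1 without RFIneg 2, RFIneg 4, RFIneg 7, RFIpl 7 or RFIpl 8, 5 without RFIneg 6 and 8 without RFIpl 3. Without RFIpl 2 it was 2, P729383 and P748495, with 3.03% of all kept probes called higher.

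The 16 probes called in RFIplR against RFIpl became 11 without RFIpl 2, of which 7 were B2M, while 5.53% of all kept probes were called higher. They became 9 without RFIpl 5 and 10 without RFIplR 5 or without RFIplR 8, and they lay between 9 and 17 over all 24 fits that leave 1 array out. The B2M differences from RFIpl without RFIpl 2 lay between 0.25 and 0.53 in RFIplR and between 0.18 and 0.33 in RFIneg. Without RFIpl 7 and 8, 0 class I probes were called in RFIneg against RFIpl, where 3.07% of all kept probes were, and 9 in RFIplR against RFIpl, where 6.24% were. The part of the muscle and keratinocyte transcripts in the class I values was not tested. A background correction by normexp ended the calls altogether: with it and the block, 0 class I probes were called by limma in either comparison with RFIpl, where 1.72% of all kept probes were called in RFIneg and 1.91% in RFIplR. At an unadjusted p under 0.05 there were then 16 class I probes in RFIneg and 12 in RFIplR. The share of all kept probes at that p was not worked out with normexp, so these counts have no background. With the block and no normexp that share was 22.8% in RFIneg and 25.7% in RFIplR. Although normexp ended the calls, the differences of all 10 B2M probes stayed positive with it, at 0.19 to 0.49 in RFIplR and 0.24 to 0.49 in RFIneg. Under that correction the median of all kept probes was itself 0.09 in RFIplR against RFIpl.

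**Figure D3:**
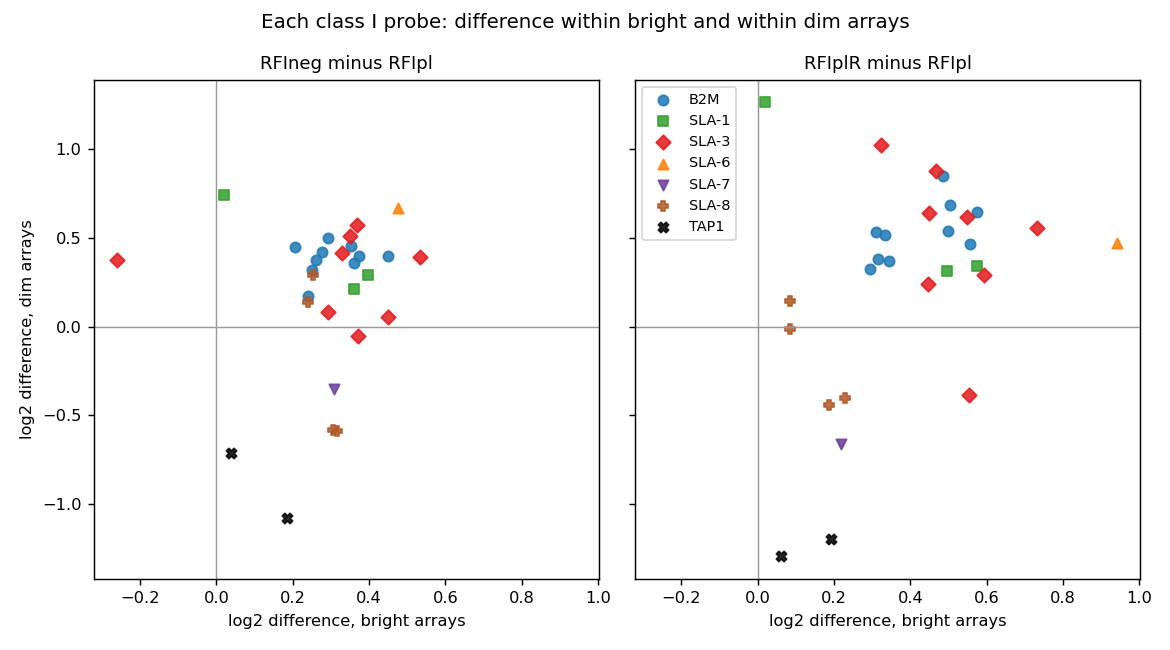
For each class I probe, the log2 difference within bright arrays (horizontal axis) against that within dim arrays (vertical axis), for RFIneg minus RFIpl (left) and RFIplR minus RFIpl (right). Each point is 1 probe, marked by gene. All 10 B2M probes lie above 0 on both axes in both panels, whereas both TAP1 probes are above 0 on bright arrays and below 0 on dim ones.

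Among the classical heavy chains, 5 of the 11 SLA-1 and SLA-3 probes passed the test in RFIplR against RFIpl and 0 in RFIneg against RFIpl. SLA-3 P440386, printed above, read 2.90, 3.70 and 3.95 in RFIneg (lowest, median and highest), and 3.13, 3.64 and 4.27 in RFIplR, against 2.41, 2.90 and 3.76 in RFIpl. RFIpl reached lower than either other group, but the ranges overlapped. With the block its difference was 0.68 ± 0.17 in RFIplR against RFIpl, or 1.60-fold (adjusted p = 0.016), and 0.50 ± 0.17 in RFIneg against RFIpl (adjusted p = 0.084). Its SLA-1 counterpart P440391 differed by 0.50 ± 0.20 in RFIplR (adjusted p = 0.11) and by 0.37 ± 0.20 in RFIneg (adjusted p = 0.27), both against RFIpl. The paired probes followed each other across pigs, with a Pearson r of 0.83 over 24 arrays after the brightness class mean was removed.

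Beside P440386 the called probes were SLA-3 P625308 (difference 0.56, adjusted p = 0.013), P649741 (0.51, adjusted p = 0.022) and P683231 (0.39, adjusted p = 0.049), and SLA-1 P262732 (0.44, adjusted p = 0.033). P262732 carries SLA-1 as its symbol, but the only transcript listed for it is that of SLA-2, so its call cannot be assigned to SLA-1. SLA-3 P683231, which lists SLA-2, SLA-3 and SLA-5, read 3.62, 4.86 and 5.37 in RFIplR, against 3.35, 4.52 and 4.99 in RFIpl. Its bright arrays averaged 5.04 ± 0.24 in RFIplR (n = 5) and 4.60 ± 0.28 in RFIpl (n = 6) and the ranges overlapped. Without RFIpl 2, SLA-3 P683231 had an adjusted p of 0.080 and SLA-1 P262732 one of 0.053, so both lost their call. The SLA-1 probe with the highest mean signal, P035616, read 6.99, 7.45 and 7.99 in RFIplR and 5.52, 7.56 and 7.81 in RFIpl. Its difference was 0.40 with the block (adjusted p = 0.22), 1.26 on dim arrays and 0.02 on bright ones.

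SLA-3 probes did not all report the same thing. P625729 ranged from 0.16 to 4.05 in RFIneg, from 0.61 to 4.65 in RFIplR and from -0.24 to 4.09 in RFIpl, with medians of 2.82, 2.67 and 2.33. A single pig of each group stood under 1, RFIneg 2 at 0.16, RFIplR 4 at 0.61 and RFIpl 8 at -0.24, while the other 21 were at 1.59 or above. Its SD within group and brightness class was 1.21, against 0.25 for P683231, and it was called in no comparison. The same pigs were low at P682906, which correlated with P625729 at 0.76: RFIneg 2 was the lowest bright RFIneg array at 5.87, RFIplR 4 the lowest of all arrays at 4.05 and RFIpl 8 the lowest bright RFIpl array at 5.43. P515992 also varied widely between pigs (SD 0.63) and was the one SLA-3 probe with a negative difference in RFIneg against RFIpl, at -0.10 ± 0.29. After brightness was removed, the 15 pairs among the remaining 6 SLA-3 probes correlated at 0.12 to 0.89 over 24 arrays. P625729 reached -0.09 to 0.76 with the other 7 and P515992 -0.04 to 0.47. P625308 and P682906 share 42 bases and still correlated at only 0.12. Arrays share brightness, slide and scan day, so these correlations are descriptions.

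**Figure D4:**
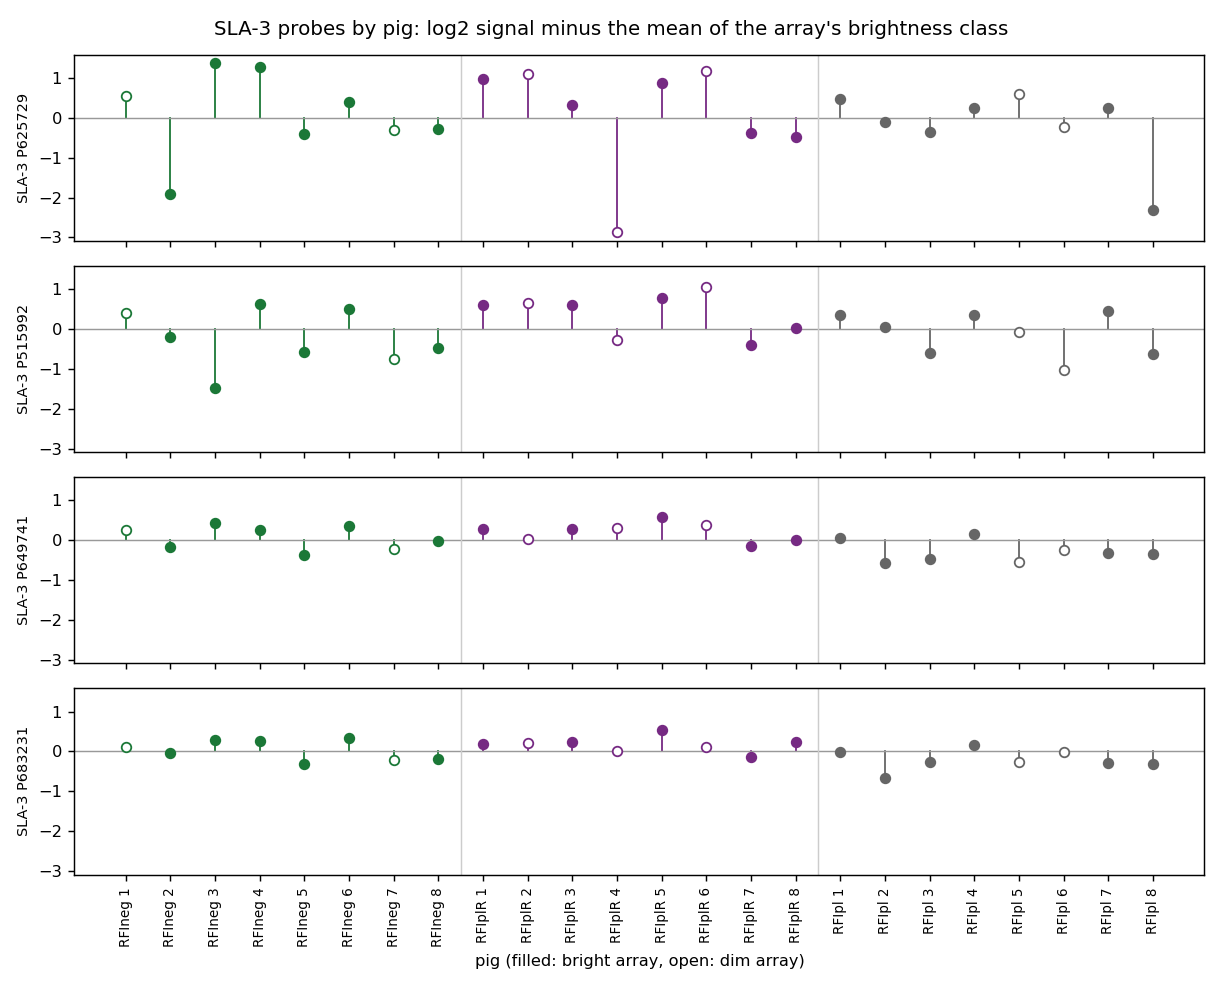
Log2 signal of 4 SLA-3 probes in each of the 24 pigs, minus the mean of the array's brightness class (vertical axes, the same scale), with RFIneg left, RFIplR in the middle and RFIpl right. Filled points are bright arrays and open points dim ones. P625729 drops far below 0 in 1 pig of each group, and the same pigs stand closer to the rest at the other 3 probes shown.

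The non-classical heavy chains differed among themselves. SLA-6, at P237292, read -1.39, -0.39 and 0.33 in RFIneg and -1.48, -0.12 and 0.33 in RFIplR, against -1.74, -1.12 and -0.01 in RFIpl. RFIplR pigs lay mostly above RFIpl pigs, with overlap. With the block the difference was 0.78 ± 0.23 in RFIplR against RFIpl, or 1.72-fold (adjusted p = 0.035), and 0.52 ± 0.23 in RFIneg against RFIpl (adjusted p = 0.18). The call was lost without RFIpl 1, 3, 5 or 6 or RFIplR 3, 5, 6, 7 or 8, where the difference lay between 0.67 and 0.81, the highest of these without RFIpl 6. The second SLA-6 probe, which failed the filter, was well above background on 3 RFIneg arrays, 3 RFIplR arrays and 0 RFIpl arrays of 8 each. It was not tested.

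SLA-8 did not pass the test at any of its 4 probes in either fit. P070231 read 2.57, 2.84 and 2.96 in RFIneg and 2.15, 2.56 and 2.996 in RFIplR, against 2.14, 2.53 and 2.96 in RFIpl. RFIneg pigs sat in the upper part of the RFIpl range, and the difference with the block was 0.26 ± 0.11 (adjusted p = 0.17), while RFIplR against RFIpl gave 0.10 ± 0.11 (adjusted p = 0.62). The overlapping SLA-8 probes P541846 and P734731 correlated at 0.99 across pigs, and their differences in RFIneg against RFIpl were 0.32 and 0.31 on bright arrays and -0.59 and -0.58 on dim ones. SLA-7, at P223217, was well above background on 4 RFIneg arrays, 4 RFIplR arrays and 6 RFIpl arrays. It read -5.76, -4.59 and -3.002 in RFIneg, -5.06, -4.47 and -3.48 in RFIplR and -6.23, -4.54 and -3.06 in RFIpl, so the groups overlapped over all arrays. On dim arrays RFIpl lay highest, at -3.13 to -3.06, against -3.65 to -3.25 in RFIneg and -4.09 to -3.48 in RFIplR. With the block the SLA-7 differences from RFIpl were 0.14 ± 0.29 and -0.04 ± 0.29 in RFIneg and RFIplR (adjusted p = 0.82 and 0.95).

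TAP1, the transporter subunit, was called in no comparison. P223837 read -1.95, -0.81 and -0.44 in RFIneg, -2.63, -0.94 and -0.43 in RFIplR, and -1.89, -0.57 and -0.31 in RFIpl. The groups overlapped on bright arrays, where means were -0.70 ± 0.21 in RFIneg (n = 6), -0.68 ± 0.32 in RFIplR (n = 5) and -0.74 ± 0.44 in RFIpl (n = 6). With the block its differences from RFIpl were -0.15 ± 0.23 in RFIneg (adjusted p = 0.75) and -0.35 ± 0.23 in RFIplR (adjusted p = 0.34). The same differences were -0.71 and -1.29 on dim arrays, and 0.04 and 0.06 on bright ones. The probe was well above background on 7 RFIneg, 5 RFIplR and 8 RFIpl arrays of 8 each, and the second TAP1 probe, P172206, on 6, 5 and 8. P172206 gave differences of -0.13 and -0.21 with the block. Neither TAP1 probe followed B2M across pigs: of the 20 pairs, 10 had a positive r, in a range of -0.19 to 0.12.

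**Figure D5:**
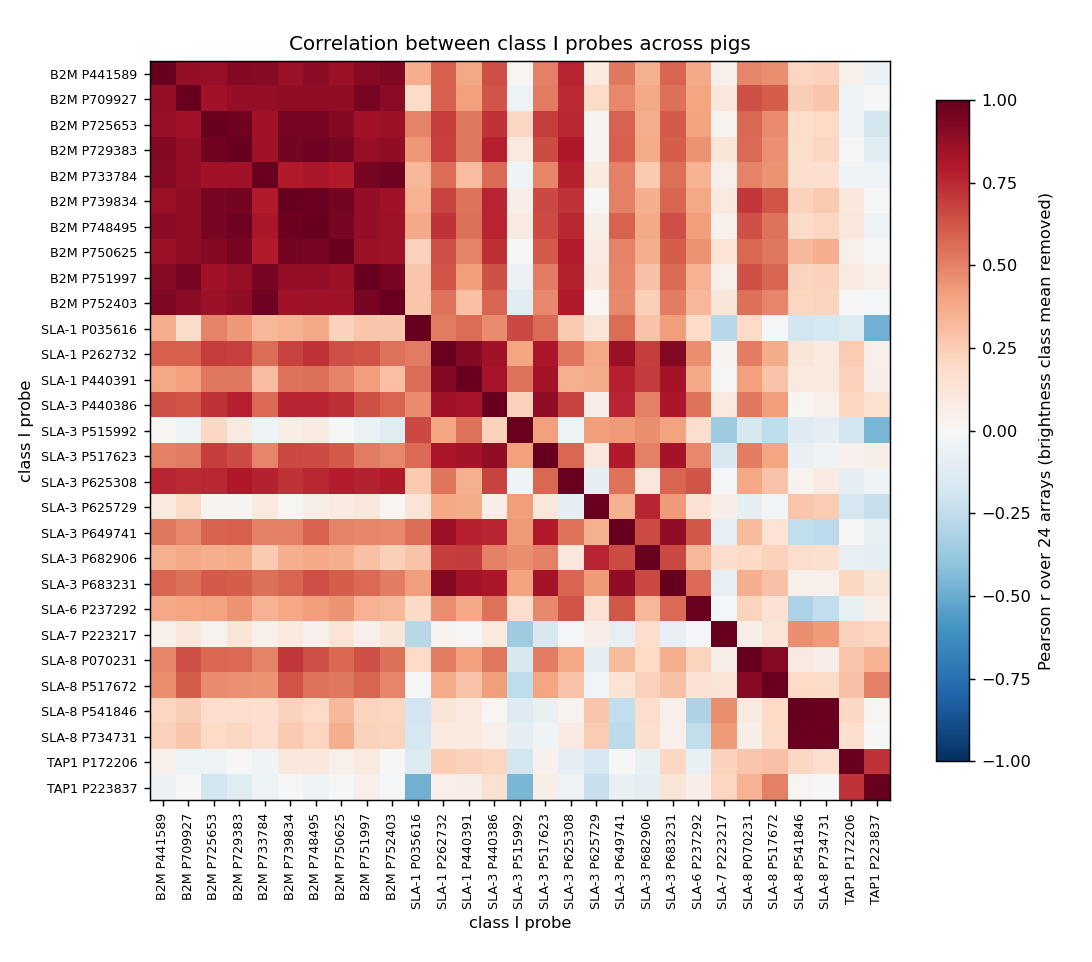
Pearson correlation (colour, from -1 to 1) between each pair of the 29 class I probes over 24 arrays, after the mean of each brightness class was removed. Probes are ordered by gene along both axes. B2M forms a block of high values, at 0.79 to 0.98, the SLA-1 and SLA-3 rows share it in part, and TAP1 and SLA-7 stand near 0 against B2M.

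The 45 pairs of B2M probes correlated at 0.79 to 0.98 with brightness removed. Of the 110 pairs of an SLA-1 or SLA-3 probe with a B2M probe, 106 had a positive r, with a median of 0.49 for SLA-1 and 0.52 for SLA-3. However, SLA-3 P515992 lay between -0.12 and 0.21 and SLA-3 P625729 between 0.01 and 0.19. SLA-8 correlated with B2M at a median of 0.41, SLA-6 at 0.39, SLA-7 at 0.08 and TAP1 at 0.00. Among 4410 genes outside the members, ranked by their correlation over 24 arrays with the mean of the members, the 8 most alike were RIIAD1 (r = 0.77), SLA-5 (0.76), MSH5 (0.69), ARHGAP25 (0.69), CTSD (0.68), LGMN (0.66), CD58 (0.66) and SERINC3 (0.64), where the median r was 0.03. SLA-5 is a further class I gene whose transcript some member probes also list, CTSD encodes the lysosomal protease cathepsin D, LGMN the lysosomal protease legumain, and CD58 a ligand of the T cell receptor partner CD2.

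The machinery that prepares peptides gave no call. Of 17 listed genes of class I assembly and peptide supply 10 were measured, and 0 passed limma in either fit in any comparison. Their median difference with the block was 0.07 in RFIneg against RFIpl and 0.06 in RFIplR against RFIpl. Without the block, the 3 with the smallest p in RFIneg against RFIpl were LNPEP, an aminopeptidase of cross-presentation, and the immunoproteasome subunits PSMB10 and PSMB8. They stood at 0.44 (adjusted p = 0.061 with the block), 0.17 and 0.36. With the block, PSME1 at -0.16 and CALR at -0.17 had a smaller adjusted p than PSMB8 (0.38 and 0.44 against 0.50). The standard proteasome subunits PSMB5, PSMB6 and PSMB7, which the immunoproteasome subunits replace, stood at 0.35, 0.12 and 0.23, also with no call. In RFIplR against RFIpl with the block, the lowest assembly genes were CALR at -0.36 (adjusted p = 0.068) and HSPA5 at -0.35 (adjusted p = 0.23). LNPEP was highest there, at 0.31 (adjusted p = 0.17).

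The interferon response list, 21 measured of 24 genes, gave 1 call: the chemokine CXCL9, which interferon gamma induces and which draws T cells, was higher in RFIneg than in RFIpl by 1.34 with the block (adjusted p = 0.040), and by the same value with an adjusted p of 0.29 without it. Without RFIpl 2 its adjusted p with the block was 0.076. The next smallest p were those of IFNGR2, a chain of the interferon gamma receptor, at -0.28 (adjusted p = 0.14 with the block), and of GBP2, a GTPase induced by interferon, at 0.41 (adjusted p = 0.16). The median difference of the list from RFIpl was 0.02 in RFIneg with the block.

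Class II genes, whose products present peptides from outside the cell, were measured for 8 of 10 listed, and 0 of them were called without the block. With the block, 5 of 8 were higher in RFIplR than in RFIpl: CD74, the invariant chain, by 0.53, SLA-DRA by 0.50, SLA-DRB1 by 0.48, SLA-DQA1 by 0.52 and SLA-DQB1 by 0.38, with adjusted p between 0.0020 and 0.041. In RFIneg against RFIpl 3 of 8 were higher, CD74 by 0.42, SLA-DRA by 0.46 and SLA-DRB1 by 0.54. SLA-DOA, a modulator of class II peptide loading, stood at 0.53 there with an adjusted p of 0.25. Without RFIpl 2 the 5 calls in RFIplR became 4, SLA-DQB1 being lost at an adjusted p of 0.059.

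Markers of several cell types moved beside the class I probes with brightness as a block. Of 8 adipocyte markers, all well above background on all 24 arrays, 4 were higher in RFIneg than in RFIpl (ADIPOQ by 0.27, PLIN1 by 0.48, LIPE by 0.55 and CIDEC by 0.75) and 2 in RFIplR (ADIPOQ by 0.29 and PLIN1 by 0.39). Without RFIpl 2, which had the lowest adipocyte mean of all arrays, PLIN1 lost its call in RFIplR (adjusted p = 0.078) and ADIPOQ its call in RFIneg (adjusted p = 0.057). Their mean level on bright arrays ran from 5.97 to 6.34 in RFIneg, from 5.98 to 6.11 in RFIplR and from 5.17 to 6.31 in RFIpl. Of 5 endothelial markers, PECAM1 and CDH5 were higher in RFIplR than in RFIpl, by 0.50 and 0.52, KDR was lower at -0.74, and VWF was higher in RFIneg by 0.50. Among markers of immune cells 0 passed either fit: the median difference in RFIplR against RFIpl with the block was 0.46 for T and NK cells (7 measured of 12, of which 1 was well above background on all 24 arrays), -0.22 for macrophages and monocytes (5 of 9) and -0.24 for general leukocyte genes (2 of 4). In RFIneg against RFIpl these medians were 0.23, -0.17 and 0.05. Skeletal muscle (6 of 8) and keratinocyte (2 of 5) markers also gave 0 calls, with medians of -1.001 and -1.82 in RFIneg and -1.38 and -1.24 in RFIplR, both against RFIpl. No B cell or erythroid marker was measured, of 4 and 3 listed. The part of these cell types in the class I differences was not tested, and in whole tissue more cells of a type and more RNA per cell cannot be told apart.

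Scan day and slide were also set against the class I values. Within scan day 1, all of whose 11 arrays were bright, B2M P441589 differed from RFIpl by 0.07 in RFIneg and 0.12 in RFIplR. Within scan day 2, which held both bright and dim arrays unevenly, it differed by -0.35 and 0.17. On either day limma called 0 class I probes. The share of all kept probes called within a day was not worked out, so these counts have no background. Scan day 3 held 1 array of each group and gives no test. With scan day added beside brightness, 4 class I probes were called in RFIneg against RFIpl, where 4.94% of all kept probes were, and 17 in RFIplR against RFIpl, where 10.2% were. With slide and brightness together these counts were 0, where 1.45% of all kept probes were called, and 8, where 5.9% were.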

How the data were processed

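Total RNA of subcutaneous fat was labelled with Cy3 and hybridised to 1-colour Agilent arrays, 1 per pig, per the labels' protocols. The deposited scanner files hold spot intensity made by Feature Extraction 10.7.3.1, background-subtracted and detrended within each array, per the file headers. The deposited value table holds log2 values that correlate at 1 with log2 intensity on every array and have a median near 0 per array. How its probes were chosen is unknown, and the submitters' processing notes name R 2.10.0.

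Intensity was floored at 1 (no spot lay below it), logged, scaled to each array's 75th percentile and averaged over spots of a probe, without control and non-uniform spots. Kept probes passed the scanner's background call in 6 or more arrays of some group and lacked a value on 6 arrays at most. No spot was saturated and no arrays were identical. Symbols came from the files or through accessions and gene identifiers in a RefSeq table of Sscrofa11.1, used for names only: 7353 probes were named by accession, 1502 by gene identifier, 64 by synonym and 3572 by the files' own symbol, and 31107 had none. That table holds more than 1 gene called B2M, so B2M probes may read near-identical copies.

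One limma 3.58.1 fit (R 4.3.3, data.table version 1.17.8) over 24 arrays gave the 3 comparisons and the test of any difference, two-sided, with Benjamini-Hochberg adjustment over 28601 probes and a threshold of 0.05, and was tested on simulated data. Python 3.11.15, pandas 2.3.3, numpy 2.4.6 and matplotlib 3.10.9 served annotation and figures. The brightness class is the largest gap in the 75th percentile, not any gene. Slide comes from the file headers' barcode and scan day from their scan time. Where a gene is given by 1 probe, it is the kept one with the highest mean signal. From the other lists, the 3 genes with the smallest p in RFIneg against RFIpl without the block and any called gene are named. CALR, PSME1 and HSPA5 were added to show differences below 0. Nothing in the labels says that the pigs of a group are unrelated, so p-values measure the spread between these pigs. The number of arrays limits the precision. Replicate numbers are shared between groups, but the labels state no pairing and the main fits use none. In their deviations from the group means, same-numbered arrays of RFIneg and RFIpl correlated at -0.75 to 0.56. Those of RFIplR and RFIpl correlated at -0.82 to 0.88, and those of RFIneg and RFIplR at -0.80 to 0.64. With brightness removed these ranges were -0.19 to 0.04, -0.20 to 0.07 and -0.28 to 0.30. The members, lists and tests were chosen with earlier results of these data known.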

Additional observations from a re-analysis of the deposited data

Results flagged for a closer look

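Of 87 sets of 8 arrays, 1 for each measured class I probe and group, 2 held an array far from the other 7, and about 5% would by chance. Both were low values of RFIneg 7, a dim array: SLA-1 P035616 stood at 5.98, where the nearest RFIneg array was at 7.24 and the highest at 7.98. TAP1 P172206 stood at -4.32 on the same array, where the nearest was at -3.17 and the highest at -2.29.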

How the results depend on the processing

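Without the brightness block, counts of called class I probes stayed at 0 except for bright arrays alone (2) and array weights (1), both in RFIplR against RFIpl, and for settings that add the block. The brightness block gave 3 in RFIneg against RFIpl, 16 in RFIplR against RFIpl and 9 in the test of any difference. The replicate block with brightness gave 1, 10 and 6 in that order, the replicate block alone 0, and slide with brightness 8 in RFIplR against RFIpl and 5 in the test of any difference. Leaving out 1 array gave 0 without the block, and with it 0 to 8 in RFIneg and 9 to 17 in RFIplR, both against RFIpl. With the block, in RFIneg and RFIplR against RFIpl, normexp gave 0 and 0, quantile scaling 0 and 9, no filter on dim probes 0 and 10, and leaving out RFIpl 7 and 8 gave 0 and 9. In RFIneg against RFIpl median centring and the filter on all arrays each gave 6, a trended robust variance 5 and array weights 8. In RFIneg against RFIplR each setting gave 0. The share of all kept probes called is given above for the brightness block, normexp, slide with brightness, and RFIpl 7 and 8 left out. For the replicate block, single scan days, quantile scaling, median centring, the changed filters, the robust variance and array weights it was not worked out. Counts of those settings thus have no background, and the changed filters also test another set of probes. The cause of these changes was not tested.

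Differences at 1 probe per gene were compared in sign with the main fits, 1 value for each gene, comparison and setting. Against the fit without the block 91 of 894 values changed sign, and those settings include ones that add the block. Against the fit with the block 19 of 705 did. Of all these sign changes 0 were called. In RFIneg against RFIplR, SLA-3 and B2M turned to -0.16 and -0.12 with the brightness block, -0.18 and -0.11 with replicate and brightness blocks, -0.16 and -0.12 with slide and brightness, -0.26 and -0.19 with slide, -0.28 and -0.18 with scan day, -0.15 and -0.022 with array weights, -0.020 and -0.035 with quantile scaling, -0.14 and -0.077 on bright arrays, -0.24 and -0.21 on dim arrays, -0.32 and -0.051 on scan day 1, and -0.64 and -0.52 on scan day 2. There, TAP1 turned to -0.0107 with array weights, -0.0106 with slide and brightness, -0.023 on bright arrays, -0.084 with slide, -0.14 on scan day 1 and -0.11 with normexp (-0.10 with the block). SLA-1 turned to 0.051 with array weights, 0.0025 on bright arrays, 0.002 with median centring, 0.18 with normexp and 0.037 on scan day 1. SLA-7 turned to -0.083 with array weights, -0.45 with normexp (-0.24 with the block), -0.016 with quantile scaling (-0.0017 with the block) and -0.043 with slide and brightness, SLA-6 to 0.20 on dim arrays, and B2M to 0.011 with normexp and the block.

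For RFIneg against RFIpl, SLA-7 turned to -0.22 without RFIpl 7 and 8 (-0.12 with the block), -0.35 on dim arrays and -0.041 with quantile scaling, with and without the block. TAP1 turned to 0.038 on bright arrays and 0.0034 with normexp, with and without the block. SLA-1 turned to -0.039 on scan day 1, -0.064 on scan day 2, -0.006 with scan day and -0.0082 with slide, and SLA-3 and B2M to -0.74 and -0.35 on scan day 2. In RFIplR against RFIpl, SLA-7 turned to -0.043 with the brightness block, -0.072 with replicate and brightness blocks, -0.25 without RFIpl 7 and 8, -0.66 on dim arrays, -0.025 with quantile scaling and -0.048 on scan day 1, and, with the block, to 0.022 under median centring and 0.26 under normexp. TAP1 turned to 0.061 on bright arrays and 0.12 with normexp (0.11 with the block), SLA-1 to -0.020 with array weights and -0.076 on scan day 1, SLA-3 to -0.095 on scan day 2, and SLA-8 to -0.084 with normexp.

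Leaving out 1 array turned signs within these ranges. In RFIneg against RFIplR they were -0.15 to 0.24 for SLA-7 (-0.034 to 0.35 with the block), -0.079 to 0.15 for B2M, -0.21 to 0.30 for SLA-3 and -0.16 to 0.13 for SLA-1. For RFIneg against RFIpl they were -0.12 to 0.35 for SLA-7 (-0.088 to 0.31 with the block), -0.033 to 0.40 for SLA-1 and, with the block, -0.29 to 0.071 for TAP1. In RFIplR against RFIpl they were -0.15 to 0.31 for SLA-7 (-0.25 to 0.041 with the block). Signals near background on dim arrays limit TAP1 and SLA-7.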

Other observations

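Some probes outside the rule bear on members without a probe of their own. The files describe 2 probes as the transporter subunit TAP2 but give them no gene symbol. With brightness as a block they differed from RFIpl by -0.10 and 0.03 in RFIneg and by -0.01 and -0.13 in RFIplR, with adjusted p between 0.66 and 0.99, beside the values of -0.15 and -0.35 at TAP1 P223837. These probes were chosen for their description.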
